A study of Homo sapiens with 16 samples.

Results

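RGMA, RGMB, NEO1 and ID1 to ID4 were followed across 16 RNA-seq libraries from SK-N-BE(2), an established line grown from a neuroblastoma in which MYCN is amplified. They are 7 of the 63187 genes in the deposited table, were found by symbol, and all 7 were among the 19530 genes with enough counts to be tested. RGMA was selected on its higher count in 1 of the constructs (NCTAD) than in wild-type cells, in an earlier analysis of the same values. The other members belong to the same signalling route, and a comparison of batch 2 with the other batches was named together with them. RGMA in NCTAD against wild type, and every member in the batch comparison, are therefore described here without a test. The members' identifiers in the table are ENSG00000182175.15 (RGMA), ENSG00000174136.13 (RGMB), ENSG00000067141.17 (NEO1), ENSG00000125968.9 (ID1), ENSG00000115738.10 (ID2), ENSG00000117318.9 (ID3) and ENSG00000172201.12 (ID4).

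The libraries form 4 groups of 4. WT is the unmodified line as labelled, and the 3 other groups were transfected with a form of HIF-2α, the hypoxia-inducible transcription factor encoded by EPAS1. FL carries the full-length protein. NCTAD and cIDR carry the forms that the design text writes with a Δ before N-CTAD and c-IDR, taken here to mean that the region is deleted, although the sample labels leave the Δ out. Each replicate number is also labelled as a batch, so that batches 1 to 4 each hold 1 library of every group. The labels give all groups the same serum-containing medium and the same oxygen, and do not say whether WT received an empty vector, how long after transfection RNA was taken, or whether replicates were separate cultures. Transfection and HIF-2α cannot be told apart in a comparison with WT, and p-values measure the spread between these libraries, which may be technical. The deposited columns name the groups differently from the labels (wild type stands there for FL, control for WT and NTAD for NCTAD) and begin with BE2c, while the labels give the line as SK-N-BE(2). The labels were followed here, and whether BE2c stands for a subclone of the line is not given in the sources used here.

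EPAS1 separated WT from the other groups in every batch, at 13.0 to 28.1 CPM (counts per 1 M counts, TMM-scaled) in WT. The FL libraries held 1691 to 3580 CPM, the NCTAD libraries 1320 to 4228 CPM and the cIDR libraries 2189 to 5852 CPM. Reads of the cell's own EPAS1 and of the transfected sequence are counted together. Libraries held 38.6 to 56.1 M (mega) estimated counts. Of the markers of adrenergic neuroblastoma cells, PHOX2A held 489 to 590 TPM (transcripts per 1 M), HAND2 449 to 646 TPM and GATA2 564 to 942 TPM, genes picked after their values were seen, whereas TH held 0.926 to 11.2 TPM. A set of 10 mesenchymal, Schwann cell or fibroblast markers summed to 28.7 to 46.5 CPM. Among the set SOX10, PRRX1 and COL1A2 were near 0, with at most 4, 10 and 4 counts in any library. Other members were expressed, with VIM at 16.1 to 31.4 CPM and FN1 at 4.37 to 8.59 CPM.

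RGMA and RGMB are repulsive guidance molecules, proteins held on the outer face of the cell membrane by a lipid anchor. They bind neogenin, the receptor encoded by NEO1 that also binds netrins and steers growing axons, and they act as co-receptors that help bone morphogenetic proteins (BMPs) engage their receptors. BMP receptors phosphorylate SMAD1, SMAD5 and SMAD9, which enter the nucleus with SMAD4 and switch on target genes, of which the ID genes are among the most direct. ID proteins lack a DNA-binding region and hold back differentiation by sequestering basic helix-loop-helix (bHLH) factors, and in neuroblastoma ID2 has been studied as a partner of MYCN activity.

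The start regions of the members are shown because RGMA and the ID genes gave the 2 patterns described below. RefSeq windows (GRCh38.p14) of 250 bases before a gene start were searched on both strands for ACGTG and GCGTG, which hold the core of the site that HIF proteins bind, and for GGCGCC and GCCGNCGC, which BMP-activated SMADs are known to bind. The 7 genes have 13 windows, 5 of them for RGMA and 3 for RGMB. In the lines below, matches are in capitals, each sequence reads 5′ to 3′ along the gene's own strand, and a motif found on the opposite strand appears as its reverse complement (CACGT or CACGC). The ID1 sequence stops where an annotated exon begins.

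RGMA, most upstream start, chr15:93089212-93089461, minus strand: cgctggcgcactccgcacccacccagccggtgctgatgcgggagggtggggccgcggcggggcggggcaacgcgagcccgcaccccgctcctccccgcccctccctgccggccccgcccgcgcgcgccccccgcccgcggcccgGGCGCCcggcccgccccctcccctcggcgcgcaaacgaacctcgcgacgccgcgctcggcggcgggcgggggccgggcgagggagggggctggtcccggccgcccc
ID1, chr20:31605039-31605282, plus strand: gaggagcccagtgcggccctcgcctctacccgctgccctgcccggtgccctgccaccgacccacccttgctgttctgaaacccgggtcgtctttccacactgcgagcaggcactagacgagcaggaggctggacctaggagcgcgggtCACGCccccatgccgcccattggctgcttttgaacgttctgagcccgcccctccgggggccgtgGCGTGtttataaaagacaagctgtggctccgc
ID4, chr6:19837120-19837369, plus strand: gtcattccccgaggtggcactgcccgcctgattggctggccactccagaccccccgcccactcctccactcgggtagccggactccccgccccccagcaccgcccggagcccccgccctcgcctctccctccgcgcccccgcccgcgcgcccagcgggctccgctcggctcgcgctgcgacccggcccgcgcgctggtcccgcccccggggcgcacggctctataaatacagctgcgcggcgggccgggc

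The RGMA window held 1 GGCGCC, 106 bases before the start, and neither of the HIF motifs. Over its 5 windows RGMA held 1 ACGTG, 3 GCGTG and 1 GGCGCC. The 3 windows of RGMB held 1 ACGTG, 3 GCGTG and 1 GCCGNCGC, and the NEO1 window held 1 GCCGNCGC. The ID1 window held GCGTG at 102 and 38 bases before the start, and the ID4 window held none of the 4 motifs. For ID2 and ID3 the windows run through annotated exons, so only short sites are shown, for comparison with those of ID1.

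ID2, 93 bases before the start: gtcttgatagACGTGccaccttccg
ID2, 143 bases before the start: gaaccaagccCACGCcccgcgcccg
ID2, 53 bases before the start: ggaagctccaGCGTGtggccccggc
ID3, 50 bases before the start: gaataaagagGCGTGccttccaggc
ID3, 8 bases before the start: gccgcggcgaGCGTGcgcgcgttgc

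Such matches are common. Of 35116 RefSeq windows of this length, 43.2% held ACGTG or GCGTG (18.5% and 32.2% for each alone), 16.4% held GGCGCC and 12.9% held GCCGNCGC. A match is a description of the letters, and no binding was measured. Sequence farther from a gene start was not searched, so a motif missing from a window may lie elsewhere.

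The members spanned more than 3 orders of magnitude in level per transcript length. In deposited TPM, ID3 averaged 266 ± 80.7 (SD, n = 16), ID2 236 ± 75.3, ID1 107 ± 40.6, RGMB 29.3 ± 2.62, RGMA 3.74 ± 1.32, NEO1 0.858 ± 0.327 and ID4 0.117 ± 0.0725. The ranges of ID3 and ID2 overlapped across libraries, yet within each library the same order held in 16 of 16 for every pair of neighbours. RGMB was the most abundant repulsive guidance molecule, and the remaining family member HJV, which regulates iron handling, had 0.0038 TPM on average. ID2 shares sequence with the pseudogene ID2B, which took 24 to 56 counts per library against 3940 to 11437 for ID2 itself. The antisense genes ID2-AS1 and RGMB-AS1 took 214 to 440 and 15 to 39 counts, and whether the counting used strand is not given in the sources used here.

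RGMA was higher with each form of HIF-2α than in WT, and highest with NCTAD. In batches 1 to 4, WT held 4.59, 4.45, 5.72 and 4.06 CPM of RGMA. FL held 7.16, 7.83, 6.19 and 7.51 CPM, and cIDR held 8.72, 6.72, 7.72 and 7.79 CPM. NCTAD held 15.7, 6.44, 12.8 and 13.0 CPM. Every library of each construct lay above every WT library, a separation that 0.456% of the tested genes showed for FL, 0.876% for NCTAD and 0.876% for cIDR. The NCTAD library of batch 2 stood apart from its group, within the range of FL and below the lowest cIDR library, while the other 3 exceeded all FL and cIDR libraries.

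**Figure D1:**
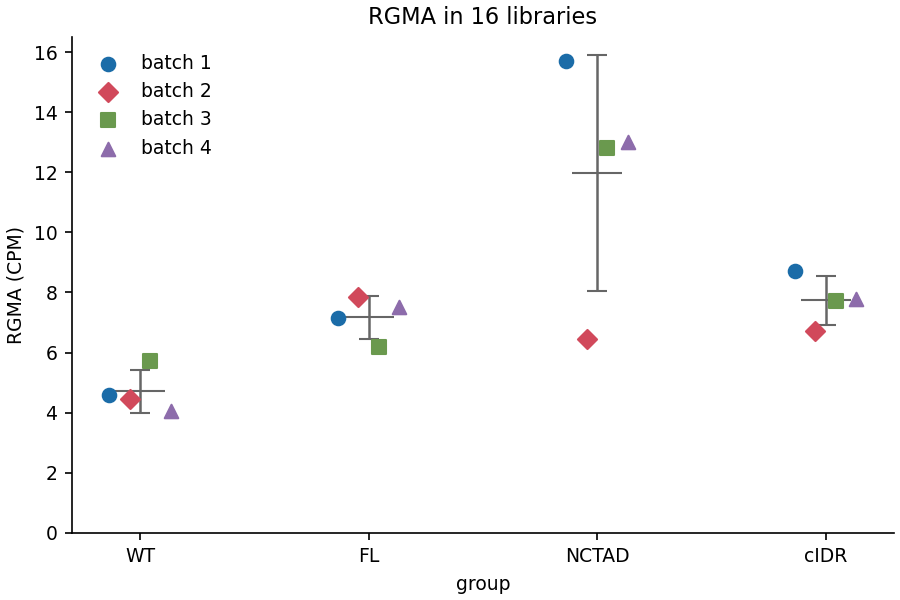
RGMA in CPM (vertical axis) in the 4 groups (horizontal axis), with 1 point per library marked by batch and the mean ± SD over 4 libraries in grey. All construct libraries lie above the highest WT value of 5.72 CPM, and the batch 2 library of NCTAD at 6.44 CPM lies below the other 3 of its group.

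On the log2 scale RGMA was 1.35 ± 0.21 (SE) higher in NCTAD than in WT, or 2.55-fold, which is the difference it was chosen for. FL exceeded WT by 0.61 ± 0.21 and cIDR by 0.72 ± 0.21, in 4 of 4 batches each. Neither passed edgeR's quasi-likelihood test after Benjamini-Hochberg adjustment over all genes in that fit, which lacks the batch. With the batch in the model the differences were 0.62 ± 0.19 and 0.71 ± 0.19, with edgeR adjusted p = 0.619 and 0.208. These comparisons share the WT libraries with the one that chose RGMA. Within batches, NCTAD exceeded WT by 1.76, 0.53, 1.16 and 1.67 in log2 CPM, so that batch 2 gave the smallest difference. FL exceeded WT by 0.64, 0.81, 0.11 and 0.88, and batch 3 was the smallest there.

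Among the constructs, RGMA was 0.74 ± 0.21 higher in NCTAD than in FL and 0.63 ± 0.21 higher in NCTAD than in cIDR on the log2 scale, in 3 of 4 batches each; both comparisons use the NCTAD libraries that chose the gene. Batch 2 went the other way, with 6.44 CPM in NCTAD against 7.83 in FL and 6.72 in cIDR. cIDR and FL differed by 0.11 ± 0.21 (95% interval −0.33 to 0.54), which is within the spread between libraries. The NCTAD library of batch 2 also had the least EPAS1 of the 12 construct libraries, 1320 CPM against 2203, 4228 and 3655 in its group. The part of EPAS1 level in the lower RGMA of that library was not tested.

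None of the other 6 members was called in any comparison between groups, with or without the batch in the model. Called genes were 0.0102% of those tested for FL against WT, 0.0256% for NCTAD and 0.0102% for cIDR. With the batch in the model these shares were 0.102%, 0.456% and 0.486%.

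RGMB, the more abundant guidance molecule, lay close together in all groups. WT held 87.3, 97.7, 93.4 and 90.5 CPM in batches 1 to 4, and FL held 78.8, 93.6, 90.7 and 88.3 CPM. NCTAD held 88.1, 99.7, 88.6 and 92.9 CPM, and cIDR held 93.0, 93.1, 87.6 and 87.4 CPM. All groups overlapped, and the fitted differences of the constructs from WT lay between −0.07 and 0.00 on the log2 scale with 95% intervals from −0.22 to 0.15. FL was below WT in 4 of 4 batches, by 0.07 ± 0.05 (SD over 4 batches) in log2 CPM, a pattern shown by 3.95% of tested genes for FL below WT. This did not pass the test (edgeR adjusted p = 0.920 with the batch in the model, 95% interval −0.18 to 0.04). A change of RGMB as large as that of RGMA in NCTAD lies outside those intervals.

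NEO1, the receptor, had 76 to 168 counts per library. WT held 2.07, 2.27, 2.56 and 2.57 CPM in batches 1 to 4, and FL held 2.04, 2.35, 2.75 and 2.71 CPM. NCTAD held 2.25, 2.26, 3.04 and 2.47 CPM, and cIDR held 2.06, 2.17, 2.88 and 3.07 CPM. The groups overlapped, with differences from WT of 0.06 to 0.11 on the log2 scale (95% intervals from −0.32 to 0.48).

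The list of guidance partners held 17 genes, of which 11 were tested, and none was called between groups with or without the batch in the model. Of the netrin receptors that work beside neogenin, UNC5B was abundant at 553 CPM, UNC5C stood at 218 CPM and UNC5A at 56.4 CPM on average, whereas DCC had 0.0059 CPM. The netrin gene NTN1 was listed at 0 in all libraries. RHOA, through which neogenin signals, averaged 403 CPM.

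ID1, the classic BMP target, differed little between groups within a batch. WT held 66.0, 26.0, 86.7 and 80.0 CPM in batches 1 to 4, and FL held 65.6, 27.3, 82.8 and 84.2 CPM. NCTAD held 68.5, 24.3, 86.4 and 78.6 CPM, and cIDR held 75.8, 29.1, 92.7 and 92.5 CPM. cIDR was thus the highest group in each batch, by 0.17 ± 0.05 (SD over 4 batches) in log2 CPM over WT, while the ranges of all groups overlapped. A difference in the same direction in 4 of 4 batches was shown by 10.6% of tested genes for cIDR above WT. It did not pass the test (edgeR adjusted p = 0.296 with the batch in the model, 95% interval 0.07 to 0.27; without the batch, interval −0.80 to 1.13).

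ID3 followed a like course. WT held 148, 80.3, 180 and 160 CPM in batches 1 to 4, FL 154, 73.7, 179 and 191 CPM, NCTAD 162, 71.6, 174 and 171 CPM, and cIDR 177, 80.9, 189 and 188 CPM. cIDR exceeded WT in 4 of 4 batches, by 0.14 ± 0.12 (SD) in log2 CPM, and this did not pass the test either (edgeR adjusted p = 0.821 with the batch in the model).

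ID2, the family member tied to MYCN, showed no group ahead in all batches. WT held 159, 85.7, 214 and 199 CPM, FL 147, 83.3, 198 and 213 CPM, NCTAD 164, 79.6, 207 and 205 CPM, and cIDR 166, 79.3, 214 and 208 CPM. With the batch in the model, the constructs' differences from WT lay between −0.04 and 0.00 on the log2 scale, with 95% intervals from −0.15 to 0.11. MYCN itself stood at 2879 CPM on average and was called in no comparison.

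ID4, which in neural tissue favours an undifferentiated state, was almost silent. In batches 1 to 4 the WT libraries had 23, 5, 24 and 8 counts and the FL libraries 8, 6, 23 and 15. The NCTAD libraries had 7, 1, 33 and 21 counts and the cIDR libraries 18, 4, 21 and 20. Groups overlapped, and the 95% intervals of the differences from WT ran from −1.89 to 1.74 on the log2 scale, and from −1.23 to 1.10 with the batch in the model. A difference within those intervals was not detectable here.

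**Figure D2:**
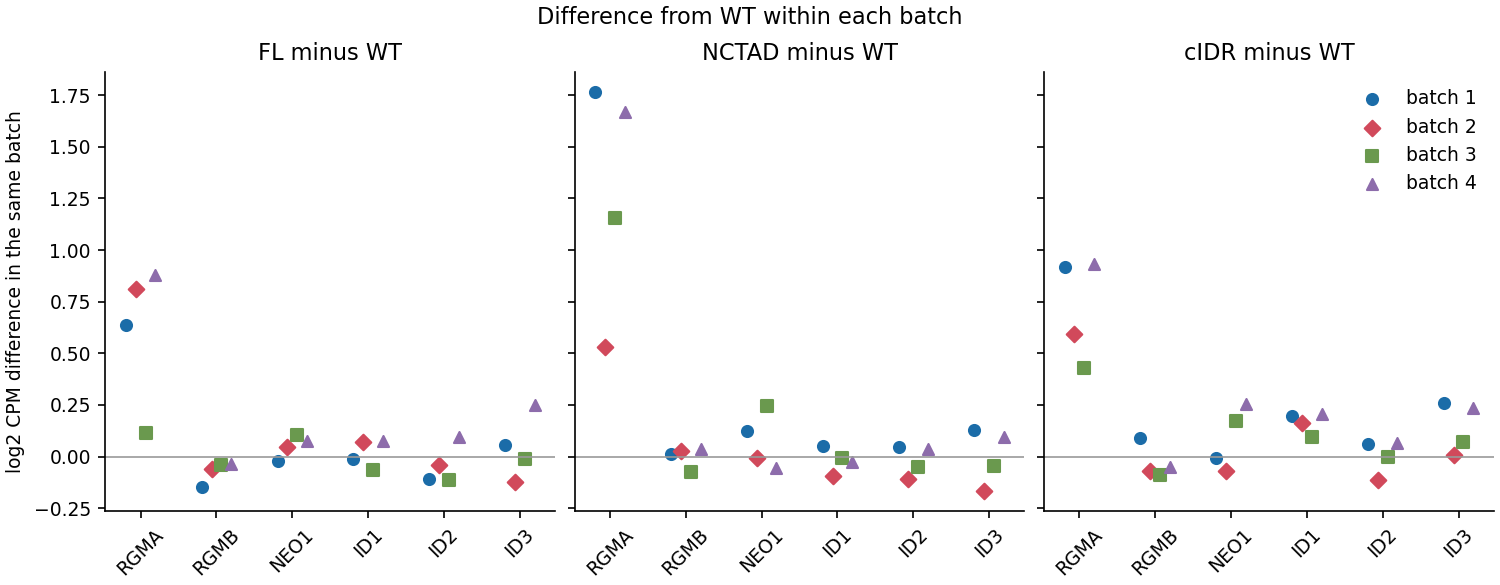
Difference in log2 CPM from the WT library of the same batch (vertical axis) for 6 of the genes (horizontal axis), in 1 panel per construct with 1 point per batch; ID4 is left out for its low counts. RGMA lies above 0 in all batches and panels, from 0.11 to 1.76, and the other genes stay within 0.26 of 0.

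None of the genes that pass the BMP signal on was called between groups without the batch in the model. BMPR1A, BMPR1B and BMPR2, the main receptor chains, differed from WT by −0.12 to 0.01 in the 3 constructs on the log2 scale with the batch in the model. SMAD1, SMAD5 and SMAD9, the messengers, differed by −0.15 to −0.02. SMAD6 and SMAD7, inhibitors that BMP signals themselves induce, differed by −0.05 to 0.08. The bHLH partners TCF3, TCF4 and TCF12 differed by −0.11 to 0.01, and none of the 3 was called.

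With the batch in the model 1 of 8 BMP receptors was called, ENG in NCTAD. ENG encodes endoglin, a co-receptor for BMP9, and rose by 0.70 ± 0.14 (SE, log2; edgeR adjusted p = 0.0404 with the batch in the model). Its differences from WT were 0.56 ± 0.14 in FL and 0.43 ± 0.14 in cIDR, which were not called, and NCTAD differed from FL by 0.14 ± 0.14 (edgeR adjusted p = 0.996 with the batch in the model).

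The hypoxia markers gave 5 calls of 10 in NCTAD and 6 of 10 in cIDR against WT with the batch in the model and 0 in FL, and 0 in any of the 3 without the batch. FL lay on the same side: its markers summed to 342, 1142, 399 and 366 CPM in batches 1 to 4, against 274, 774, 314 and 297 CPM in WT. NCTAD against FL gave no call among the 10, and cIDR against FL gave 1, KDM3A, a histone demethylase. VEGFA, the angiogenic growth factor, rose by 1.05 ± 0.11 in NCTAD and 0.89 ± 0.11 in cIDR (edgeR adjusted p = 0.00035 and 0.00106 with the batch in the model), beside 0.47 ± 0.11 in FL, which was not called. NDRG1, a stress-responsive gene, rose by 2.03 ± 0.33 in NCTAD and 2.49 ± 0.34 in cIDR with the batch in the model, beside 1.56 ± 0.33 in FL, not called. Without the batch its differences were 1.06 ± 1.14, 1.56 ± 1.15 and 1.13 ± 1.14, and none was called.

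TH and DBH, enzymes of catecholamine synthesis, were called in NCTAD and in cIDR with the batch in the model and in neither without it. With the batch, TH rose by 1.27 ± 0.17 in NCTAD and 1.06 ± 0.17 in cIDR, beside 0.83 ± 0.17 in FL, where the edgeR adjusted p was 0.121. DBH rose by 0.61 ± 0.07 and 0.51 ± 0.07, beside 0.36 ± 0.07 in FL with an edgeR adjusted p of 0.0681.

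TH was also among the 3 genes whose pattern came nearest to that of RGMA. Likeness was the root mean square difference in log2 CPM over 16 libraries, after subtracting each gene's mean in the batch, among 12373 genes. HTR1E, a serotonin receptor gene, was nearest at 0.21, followed by RTL1, a gene derived from a retrotransposon, at 0.24 and TH at 0.24; RGMA's own root mean square deviation from its batch means was 0.51. Group means of these deviations, in the order WT, FL, NCTAD and cIDR, were −0.65, −0.04, 0.63 and 0.07 for RGMA and −0.52, 0.03, 0.40 and 0.09 for HTR1E. For ID1, whose own deviation was only 0.08, the nearest genes were CTNS, SLC25A43 and MSMO1, all at 0.05 to 0.06, and ID3 followed next at 0.06. These are descriptions of pattern in 16 libraries.

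The ID genes differed between batches far more than between groups. ID1 ranged from 24.3 to 29.1 CPM in the 4 libraries of batch 2, with a median of 26.6, and from 65.6 to 92.7 CPM in the 12 others, with a median of 81.4. ID2 ranged from 79.3 to 85.7 CPM (median 81.4) against 147 to 214 CPM (median 202). ID3 ranged from 71.6 to 80.9 CPM (median 77.0) against 148 to 191 CPM (median 175). All 4 groups were low together in batch 2, and no library of batch 2 overlapped the others for any of these genes. The mean of batch 2 was 33.4% of that of the other batches for ID1, 42.9% for ID2 and 44.4% for ID3.

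ID4 had 1 to 6 counts in batch 2 and 7 to 33 in the other batches, again without overlap. On the log2 scale, with the group in the model, batch 2 differed from the mean of batches 1, 3 and 4 by −1.58 ± 0.04 (SE) for ID1, −1.21 ± 0.04 for ID2, −1.17 ± 0.05 for ID3 and −2.34 ± 0.45 for ID4. The guidance genes differed less, by −0.30 ± 0.15 for RGMA, −0.15 ± 0.10 for NEO1 and 0.11 ± 0.04 for RGMB. The value for RGMA was −0.06 without the NCTAD library of batch 2 and −0.48 without the FL library of batch 2.

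**Figure D3:**
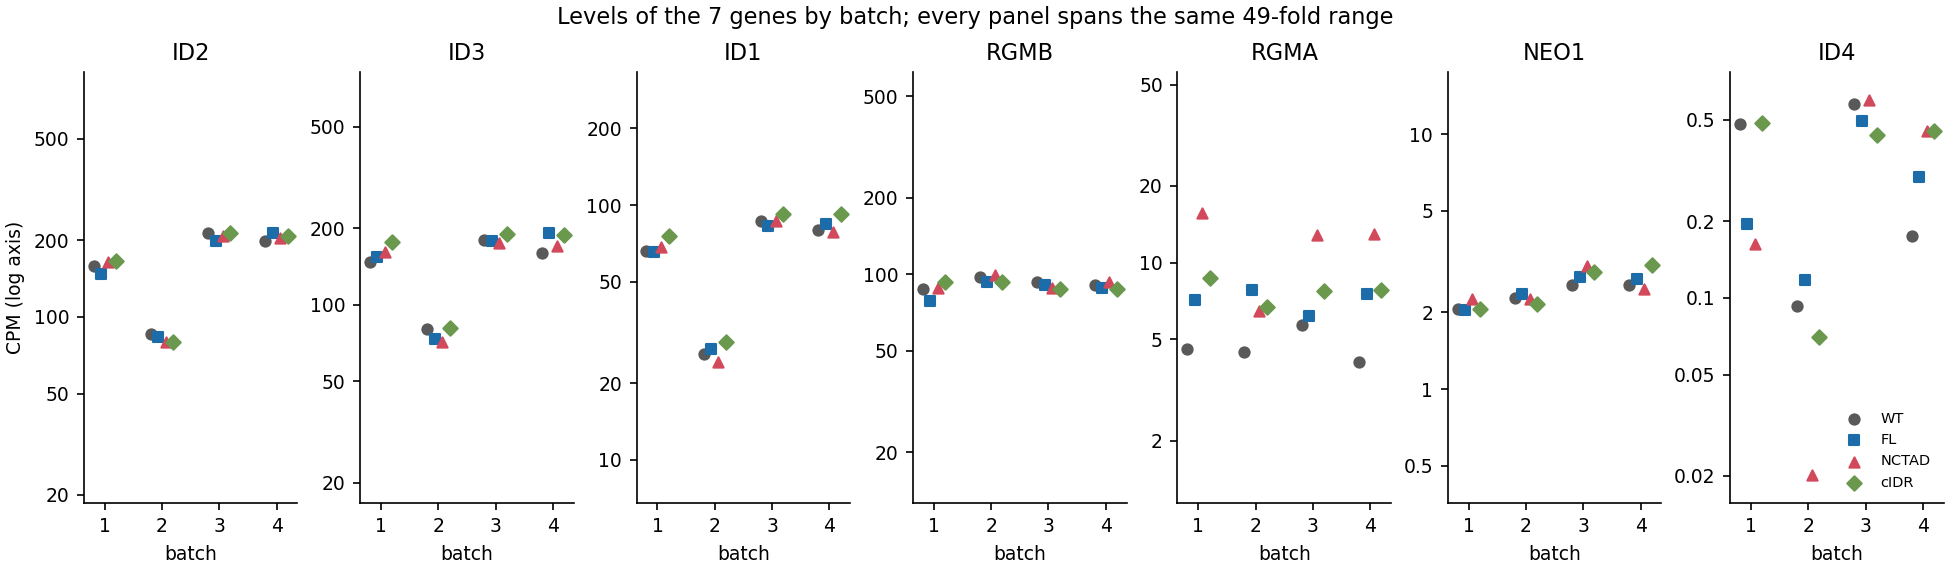
CPM of the 7 genes (vertical log axis, the same fold range in every panel) in batches 1 to 4 (horizontal axis), with 1 point per library marked by group. ID1, ID2, ID3 and ID4 are lowest in batch 2 in all groups, NEO1 is lower in batches 1 and 2 than in batches 3 and 4, RGMB moves little, and RGMA differs by group.

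Differences in batch 2 were common: by the call rule, 26.1% of all tested genes were lower there and 27.7% higher. Genes whose 4 batch 2 libraries all lay below the 12 others made up 14.6% of those tested, and those lying above made up 14.4%. Counting from the lowest of all 19530 differences, ID4 was at place 38, ID1 at 97, ID2 at 183 and ID3 at 204. A batch is 1 event whatever the number of libraries in it, so nothing is known of how often such a batch occurs. Rises, falls and calls in batch 2 below describe these libraries, and the gene lists were chosen with earlier results known.

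In CPM, batch 1 stood between batch 2 and the other batches for ID1 and ID2, and was lowest on average for NEO1. ID1 held 65.6 to 75.8 CPM there, against 82.8 to 92.7 in batch 3 and 78.6 to 92.5 in batch 4. ID2 held 147 to 166 CPM, against 198 to 214 and 199 to 213. NEO1 held 2.04 to 2.25 CPM in batch 1 and 2.17 to 2.35 in batch 2, against 2.56 to 3.04 and 2.47 to 3.07. For these 3 genes batch 1 lay wholly below batches 3 and 4, which was seen in 4.41% of tested genes (4.43% lay wholly above), and these batches were set side by side after the values were seen. ID3 overlapped, at 148 to 177 CPM against 174 to 189 and 160 to 191. In deposited TPM, NEO1 averaged 0.909, 0.799, 1.05 and 0.671 in batches 1 to 4, so its order of batches holds in CPM only.

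Several genes that BMP signals induce were lower in batch 2, as the ID genes were. SMAD6 fell by 1.12 ± 0.06 (SE) on the log2 scale, from 50.0 ± 12.4 CPM (SD, n = 12 libraries) to 22.3 ± 2.31 (n = 4 libraries). SMAD7 fell by 0.92 ± 0.06 and BAMBI, a decoy receptor, by 1.00 ± 0.06. Of the 7 inhibitors inside the cell or membrane, 5 fell and SMURF1, a ubiquitin ligase, rose, with a median of −0.16. Of 7 other BMP targets 5 were tested, of which 4 fell and DLX5 rose: ATOH8 fell by 1.53 ± 0.12, MSX2 by 0.91 ± 0.07 and MSX1 by 0.85 ± 0.18, the latter 2 being homeobox genes. The median over the target list was −0.85, beside 0.03 over all tested genes.

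The receptors moved in both directions. BMPR1A fell by 0.42 ± 0.07, BMPR1B by 0.46 ± 0.05 and BMPR2 by 0.43 ± 0.07 on the log2 scale, and 5 of 8 receptors fell in all. ACVRL1, a receptor best known from blood vessels, rose by 1.81 ± 0.06, from 11.7 ± 1.25 CPM (SD, n = 12 libraries) to 41.0 ± 3.40 (n = 4 libraries). ENG, which works with ACVRL1, rose by 1.32 ± 0.10. SMAD9 fell by 0.59 ± 0.07, SMAD4 by 0.27 ± 0.05 and SMAD1 by 0.26 ± 0.05, whereas SMAD5 differed by 0.03 ± 0.07 and was not called.

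BMP ligands were scarce throughout. Of 11 ligand genes 3 passed the filter, and only BMP7 averaged above 1 CPM, at 5.61 ± 0.44 (SD, n = 12) outside batch 2 and 4.79 ± 0.37 (n = 4) within it. BMP4 rose by 1.39 ± 0.38 but from 0.129 CPM. Of the 14 secreted antagonists 7 were tested, of which 3 rose and 3 fell. SOSTDC1 rose by 0.38 ± 0.08, FSTL3 by 1.23 ± 0.21, and TWSG1 fell by 0.33 ± 0.07.

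**Figure D4:**
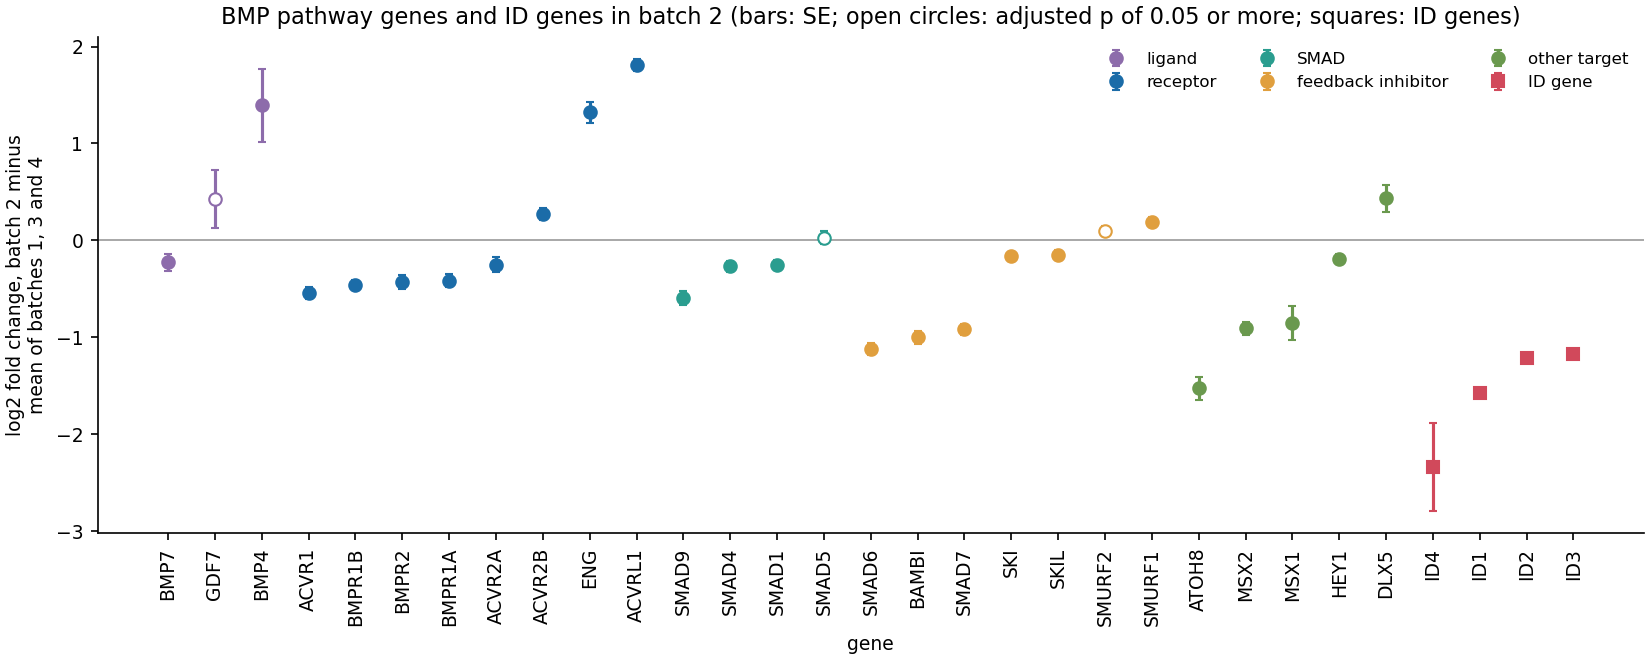
Log2 fold change of batch 2 against the mean of batches 1, 3 and 4 (vertical axis, with its SE) for tested BMP pathway genes and the ID genes (horizontal axis), coloured by role. SMAD6, SMAD7, BAMBI, ATOH8, MSX1 and MSX2 lie between −1.53 and −0.85, near ID1, ID2 and ID3, while ACVRL1 and ENG lie above 1.

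The partners of the ID proteins changed less uniformly. TCF3, TCF4 and TCF12, the ubiquitous bHLH factors that ID proteins sequester, differed in batch 2 by 0.09, 0.08 and 0.03 on the log2 scale and were not called. HAND1, a bHLH factor, fell by 0.66 ± 0.06, while HAND2 rose by 0.32 ± 0.04. Of 11 genes of ID2 turnover and binding, 3 rose and 5 fell, beside 27.7% and 26.1% of all tested genes. USP1, which removes ubiquitin from ID proteins, fell by 0.42 ± 0.05, and DYRK1B, a kinase acting on ID2, rose by 0.57 ± 0.04. Of 11 tested guidance partners 4 fell and 0 rose, UNC5B by 0.38 ± 0.07.

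Hypoxia markers were high in batch 2 in all groups, although the labels give 1 oxygen level for all libraries. The 10 markers summed to 774 CPM in the WT library of batch 2 and to 1142, 1090 and 1322 CPM in its FL, NCTAD and cIDR libraries, and to 274 to 547 CPM in the 12 other libraries. Of the 10 genes 9 rose, among them PDK1, a brake on mitochondrial pyruvate use, by 2.81 ± 0.08 and BNIP3, a mitophagy receptor, by 1.73 ± 0.06; SLC2A1 differed by 0.05 ± 0.10. The WT library of batch 2 thus exceeded every construct library of the other batches in this sum. EPAS1 was also highest in batch 2 among WT libraries, at 28.1 CPM against 13.0 to 17.3. In the constructs batch 2 was lowest for NCTAD, at 1320 CPM against 2203 to 4228, and for cIDR, at 2189 against 4078 to 5852. The FL library of batch 2 held 2001 CPM, within the 1691 to 3580 of the other FL libraries. The part of the hypoxia markers and of EPAS1 in the lower ID genes was not tested.

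Markers of cell state also differed in batch 2. Among adrenergic genes TH rose by 2.15 ± 0.12 (SE, log2) and DBH by 0.69 ± 0.05, while GATA3 fell by 0.80 ± 0.05 and GATA2 by 0.40 ± 0.05. Of 7 tested mesenchymal, Schwann cell or fibroblast markers 3 rose and 2 fell, with a median of 0.25: COL1A1, a collagen chain, rose by 1.31 ± 0.11 from 2.30 CPM, S100B rose by 0.74 ± 0.12 and CD44, an adhesion receptor, fell by 0.57 ± 0.11. The 10 genes of that list summed to 38.2 to 43.5 CPM in batch 2, within the 28.7 to 46.5 CPM of the other batches. The part of these genes in the lower ID genes was not tested.

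**Figure D5:**
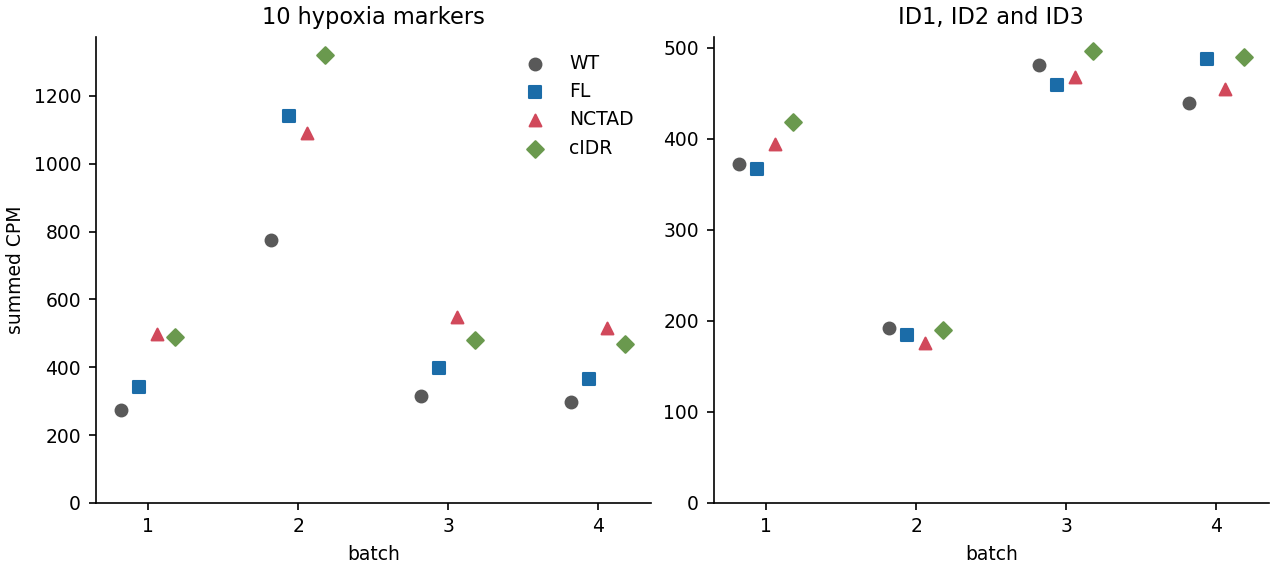
Summed CPM (vertical axes) of 10 hypoxia markers at left and of ID1, ID2 and ID3 at right in batches 1 to 4 (horizontal axes), with 1 point per library marked by group. In batch 2 the marker sum is 774 to 1322 CPM and the ID sum 176 to 192 CPM; in the other batches the ID sum is 367 to 496 CPM.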

How the data were processed

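RNA-seq was measured in 16 libraries, 4 per group, from poly(A)-selected stranded libraries, per the labels' protocols. The submitters' processing notes name fastp, STAR, Salmon and featureCounts without versions, and the build GRCh38; the annotation release and whether strand was used are not given in the sources used here. The authors deposited estimated counts per gene from Salmon, not scaled to depth, and TPM values scaled to the same sum per library. Of the estimated counts 15.5% were not whole, and they were rounded.

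Genes were filtered with filterByExpr, scaled by TMM and fitted with edgeR 4.0.16 (R 4.3.3, quasi-likelihood) over 16 libraries with group as the only term. The batch comparison used group and batch. Calls were made at a Benjamini-Hochberg adjusted p under 0.05, and the 95% intervals use the fit's total (residual plus prior) degrees of freedom. Log2 CPM used a prior count of 2. DESeq2 1.42.0 and limma 3.58.1 on log2(TPM + 1) and log2(TPM + 0.1) were alternatives. Figures used matplotlib 3.10.9 in Python 3.11.15. In simulated counts of NCTAD against WT over 19530 genes, the fit recovered 58% of genes changed by 1 on the log2 scale and 74% of those changed by 2; with the batch these were 70% and 94%. Unchanged genes gave 10 calls without the batch and 7 with it. The fits without and with the batch used separate simulated sets. The former held no batch differences, and the latter held random ones of the same spread in every batch. Neither had a batch set apart as batch 2 is. The shares therefore do not measure recovery in these libraries or the gain from the batch.

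The batch labels pair same-numbered libraries: their deviations from the group means correlated by 0.308 on average (0.067 to 0.712), against −0.0945 between batches. The biological coefficient of variation was 0.245 without and 0.108 with the batch. No library copied another: replicates differed by a chi-square of at least 6.71 per degree of freedom.

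The members and the 117 genes in 12 lists were chosen with earlier results of these data known. Named genes were the members, EPAS1, up to 3 called members per list with the smallest adjusted p, a fixed set by role (BMPR1A, BMPR1B, BMPR2, SMAD1, SMAD5, SMAD6, SMAD7, SMAD9, UNC5B, TCF3, TCF4, TCF12), and the 3 genes most like RGMA and ID1; other list genes were named after their values were seen. RefSeq windows carry no protein sequences, and none was used here.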

Additional observations from a re-analysis of the deposited data

Results flagged for a closer look

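In 3 groups of 4 libraries the lowest library stood far from the other 3, and each time it was the library of batch 2. The gap to the nearest library, as a share of the whole range of the group, was 0.886 for ID3 in cIDR (80.9 CPM against 177 to 189), 0.877 for ID3 in NCTAD (71.6 CPM against 162 to 174) and 0.877 for ID4 in cIDR (4 counts against 18 to 21). In all 28 groups were examined, and chance flags about 1 in 20 such groups. The 3 share 1 batch, which was named together with the genes, so their number is no test. ID1, ID2 and the other groups of ID3 and ID4 were also lowest in batch 2, with a smaller share of their range in the gap.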

How the results depend on the processing

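The batch as a replicate block (the pairing by batch) raised most counts of called genes. FL against WT went from 2 to 20, NCTAD against WT from 5 to 89 and cIDR against WT from 2 to 95; cIDR against FL went from 0 to 6 and cIDR against NCTAD from 0 to 1, and NCTAD against FL stayed at 0. RGMA in NCTAD was 1.32 higher than in WT with the block, and the block changed no call of a member between groups. With batch 2 left out the counts were 10 for FL, 39 for NCTAD and 33 for cIDR against WT and 5 for cIDR against FL. With batch 2 left out and the block they were 16, 62 and 46 against WT, 5 for NCTAD against FL and 10 for cIDR against FL.

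DESeq2 called 11, 17 and 8 genes against WT in FL, NCTAD and cIDR, 2 in NCTAD against FL and 3 in cIDR against NCTAD. A minimum of 10 counts in every library gave 1, 3 and 1 against WT, and ID4 then could not be fitted. Limma on log2(TPM + 1) gave 1 in FL and 1 in NCTAD, and on log2(TPM + 0.1) 2 in NCTAD. The fit to only the 8 libraries of a comparison gave 1 in cIDR. Leaving out 1 library at a time gave 2 throughout for FL and for cIDR against WT, 2 to 4 for NCTAD against WT and 0 for each pair of constructs. With the block these ranges were 10 to 23 for FL, 43 to 83 for NCTAD and 49 to 72 for cIDR against WT, 0 to 5 for NCTAD against FL, 0 to 8 for cIDR against FL and 0 to 2 for cIDR against NCTAD.

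RGMA in NCTAD against WT, the difference it was chosen for and so given without a test, was 1.19 to 1.56 higher with 1 library left out and 1.18 to 1.54 with the block as well. Against FL, RGMA in NCTAD was 0.58 to 0.95 higher with 1 library left out and 0.56 to 0.92 with the block. RGMA in cIDR against FL ranged from −0.021 to 0.27 with 1 library left out and the block. ID1 in cIDR ranged from −0.10 to 0.43 against WT, −0.10 to 0.42 against FL and −0.10 to 0.43 against NCTAD with 1 library left out and no block, the lowest in each case without a batch 2 library of the other group, which unbalances the batches. NEO1 was 0.10 higher in batch 2 than in batch 1 alone. RGMB in batch 2 was 0.10 to 0.12 higher with 1 library left out. ID4, at 1 to 33 counts per library, is the member with the least depth.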
